A study of Mus musculus with 10 samples.

Results

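The genes described here are the P2X and P2Y purinergic receptors P2rx2, P2rx3, P2rx4, P2rx5, P2rx6, P2rx7, P2ry1, P2ry2, P2ry12 and P2ry14 in the mouse dorsal root ganglion (DRG), the cluster of sensory neuron cell bodies and their glia outside the spinal cord. They were chosen by symbol, as 10 of the 54309 genes of the transcript annotation, and the estimated counts of their 57 transcripts were summed per gene. All 10 passed the filter on low counts. RNA-seq was done on left L4 and L5 DRG of C57BL/6J mice aged 6 to 8 weeks, in both sexes, at 24 h after the sciatic nerve was cut across its whole width at the mid-thigh (axotomy) or was exposed and left intact (sham). Each sex had 2 sham and 3 axotomy libraries, and every library pooled the ganglia of 2 mice. Because both groups had surgery, the comparison is of nerve transection with exposure of the nerve, and no uninjured mice were compared here.

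P2 receptors respond to nucleotides that cells release when they are damaged or stimulated. P2X receptors are channels gated by ATP that let cations into the cell, each built from several subunits that can be of different genes. P2Y receptors act through G proteins, some raising intracellular calcium and others lowering cyclic AMP, and answer to ATP, ADP, UTP or UDP-sugars. In sensory ganglia, nociceptors are known for P2X channels, satellite glial cells and macrophages for further P2X and P2Y receptors, and ATP acting on these receptors is a textbook signal in pain.

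Of the 10 receptor genes, 4 changed in males after axotomy and 2 changed in females, near the 42.0% and 20.2% of all genes tested. P2rx6 was downregulated in both sexes. In males P2ry14 and P2rx7 were upregulated and P2ry1 was downregulated, and in females P2rx2 was upregulated. P2rx3, the most abundant of them, did not pass the test in either sex alone. A direct test of the difference between the sexes passed for none of the 10.

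The libraries held 55258476 to 90111671 estimated counts each. The cut nerve was visible in the ganglia of both sexes, as all 6 genes of an injury list (Atf3, Npy, Sprr1a, Gal, Sox11 and Gap43) were upregulated in females and in males, Atf3 with a log2FC of 2.26 ± 0.27 (SE) and 2.62 ± 0.27. Changes are log2 fold changes (log2FC) of axotomy over sham from edgeR's quasi-likelihood F test, with the standard error (SE) and a p-value adjusted over all 20836 genes tested (padj), and a gene was called at a padj under 0.1. Levels in single libraries are normalized CPM, which are comparable between libraries. They are counts corrected for the gene's average effective transcript length in each library and scaled to a library total normalized by TMM. Levels of different genes are compared in TPM, transcript levels scaled within each library that also account for transcript length. The study's methods state parallel processing of the groups and the labels name no batch, and the p-values measure the spread between these pools of 2 mice. One spread per gene was fitted for all 4 groups, so female calls also depend on the male libraries. The spread was unequal, with a chi-square per degree of freedom between libraries of 70.4 in male axotomy. It was 7 in male sham, 14.2 in female sham and 20.8 in female axotomy. In whole ganglia, fewer cells of a type and less RNA per cell cannot be told apart.

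Markers of several cell types moved with axotomy. More of them were called in males, as was also so among all genes tested (42.0% in males and 20.2% in females). In males all 8 macrophage markers, all 6 myelinating Schwann cell markers, all 6 fibroblast and meningeal markers, all 4 mast cell markers and both hemoglobin genes were upregulated, while 6 of 8 sensory neuron markers and 6 of 8 markers of nonpeptidergic nociceptors were downregulated. In females 1 macrophage marker of 8 rose, 2 of 6 fibroblast and meningeal markers, 2 of 8 sensory neuron markers and 4 of 8 nonpeptidergic nociceptor markers fell. Of the 6 satellite glia markers, 3 rose in males, while 1 rose and 2 fell in females. Among them Fabp7, a lipid-binding protein gene of these glia, had a log2FC of -0.99 ± 0.16 in females and 0.70 ± 0.17 in males. No Schwann cell, mast cell or hemoglobin gene was called by edgeR in females, and none had an unadjusted p under 0.05 or was called by DESeq2. All markers of these lists had counts in every library. The summed CPM of the 8 macrophage markers was 47.2 and 51.3 in the male sham libraries against 128, 94.1 and 172 in the male axotomy libraries, and 70.9 and 59.4 against 96.4, 79.2 and 73.1 in females. Male axotomy library 2 had the lowest sum of the 3 male axotomy libraries for the macrophage, Schwann cell, fibroblast, mast cell and hemoglobin lists.

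P2rx3 mRNA was far above that of every other receptor of the group in each of the 10 libraries, at a median of 237 TPM (189 to 287). P2rx4 followed at 34.7 TPM (33.4 to 36.8) and P2ry1 at 32.2 TPM (17.1 to 43.9). The order of these last 2 genes was not settled, since P2rx4 was the higher of the pair in 5 of 10 libraries. P2rx6 came next at a median of 18.2 TPM and exceeded P2ry2, at 11.9 TPM, in 10 of 10 libraries. P2ry2, P2rx7 (11.1 TPM) and P2rx5 (10.1 TPM) had overlapping ranges, with P2ry2 above P2rx7 in 7 of 10 libraries and P2rx7 above P2rx5 in 7 of 10. P2ry12 lay below them at 6.42 TPM in every library. P2ry14 and P2rx2 were lowest, at 3.42 TPM (2.84 to 4.90) and 2.82 TPM (2.06 to 3.63), and P2ry14 was the higher in 8 of 10 libraries. P2rx3 alone made up 73.2% to 78.3% of the summed TPM of the 6 P2X genes.

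**Figure D1:**
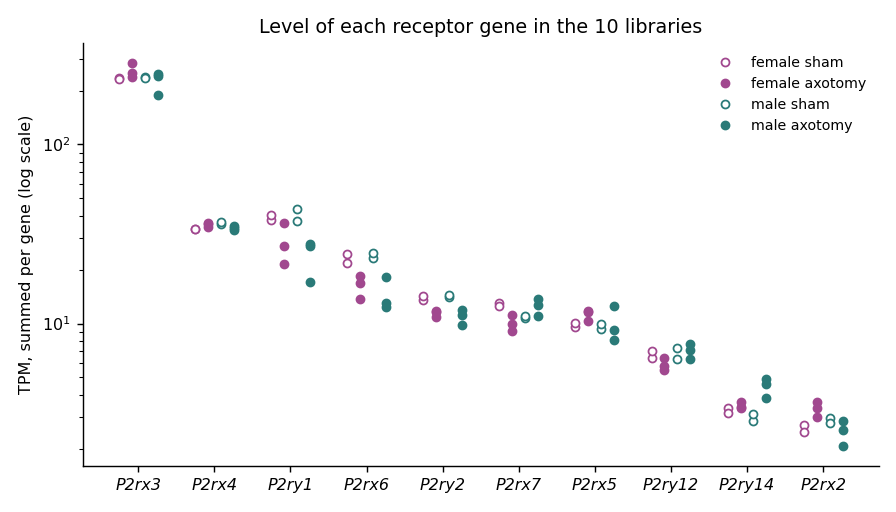
Level of each of the 10 receptor genes in TPM summed over its transcripts (log axis), with 1 point per library, open for sham and filled for axotomy, females in purple and males in green. P2rx3 lies between 189 and 287 TPM, above all others, and P2ry14 and P2rx2 lie under 5 TPM in all 10 libraries.

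The first question was which receptors change with nerve transection in each sex. In females 2 of 10 were called, against 20.2% of all genes tested. They were 1 higher gene, where 10.5% of all genes were called higher, and 1 lower gene, where 9.70% were called lower. In males 4 of 10 were called, against 42.0% of all genes. They were 2 higher genes, where 22.6% of all genes were called higher, and 2 lower, where 19.4% were called lower. The counts of receptors called were therefore near the share among all genes in both sexes. The median log2FC of the 10 receptors was 0.07 in females and 0.12 in males, beside -0.00 and 0.04 over all genes tested.

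**Figure D2:**
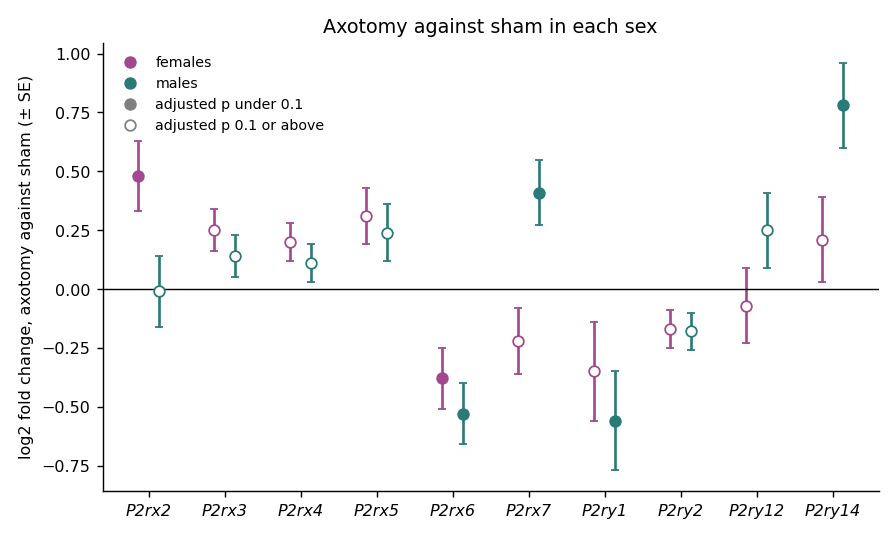
Log2FC of axotomy over sham for each receptor gene, females in purple and males in green, with bars of 1 SE from edgeR; filled points have an adjusted p under 0.1. P2rx6 is filled and below 0 in both sexes, P2rx2 is filled in females alone, and P2rx7, P2ry1 and P2ry14 are filled in males alone.

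P2rx3 encodes the ATP-gated channel subunit typical of nonpeptidergic nociceptors, the unmyelinated pain-sensing neurons that bind the lectin IB4. Its level in sham was 236 and 230 CPM in females and 231 and 233 CPM in males. After axotomy it was 266, 270 and 298 CPM in females and 281, 261 and 225 CPM in males. All 3 female axotomy libraries were above both female sham libraries, whereas male axotomy library 3 was below both male sham libraries. The log2FC was 0.25 ± 0.09 in females (padj = 0.105) and 0.14 ± 0.09 in males (padj = 0.294), neither past the threshold. In females the call depended on the method, with a padj of 0.0642 from DESeq2 and 0.032 when the 2 female groups were fitted alone. Without male axotomy library 3 the male log2FC was 0.22 and was called, with a padj of 0.0477.

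Of the 8 markers of nonpeptidergic nociceptors, the neurons typical of P2rx3, 4 fell in females, 6 fell in males and none rose. Mrgprd, a receptor gene of the same nociceptors, had a log2FC of -0.74 ± 0.13 in females and -0.78 ± 0.13 in males. The nociceptor sodium channel gene Scn10a had a log2FC of -0.51 ± 0.14 and -0.71 ± 0.14, and Gfra2, a GDNF-family receptor gene, -0.54 ± 0.18 and -0.86 ± 0.18, all called in both sexes. Ret (0.26 ± 0.12 and -0.08 ± 0.12) and Plxnc1 (-0.05 ± 0.10 and -0.16 ± 0.10) were called in neither sex. The summed CPM of the 8 nonpeptidergic markers was 3093 to 3350 in the 4 sham libraries and 2151 to 2991 in the 6 axotomy libraries, with no overlap. Scn10a, Ret and Scn11a had the highest levels of the 8, at female sham means of 1080, 727 and 544 CPM, against 165 CPM for Mrgprd. The sum therefore follows these genes more than Mrgprd. P2rx3 as a percent of that sum was 7.39, 7.44, 6.90 and 7.40 in the 2 female and 2 male sham libraries. It was 10.5, 10.5 and 9.96 in the female and 12.7, 9.40 and 10.5 in the male axotomy libraries. Each axotomy library therefore had a higher ratio than each sham library, 10.6 ± 1.11 (SD, n = 6) against 7.28 ± 0.257 (SD, n = 4). The ratio was chosen after both of its parts had been seen, and no test was made of it.

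**Figure D3:**
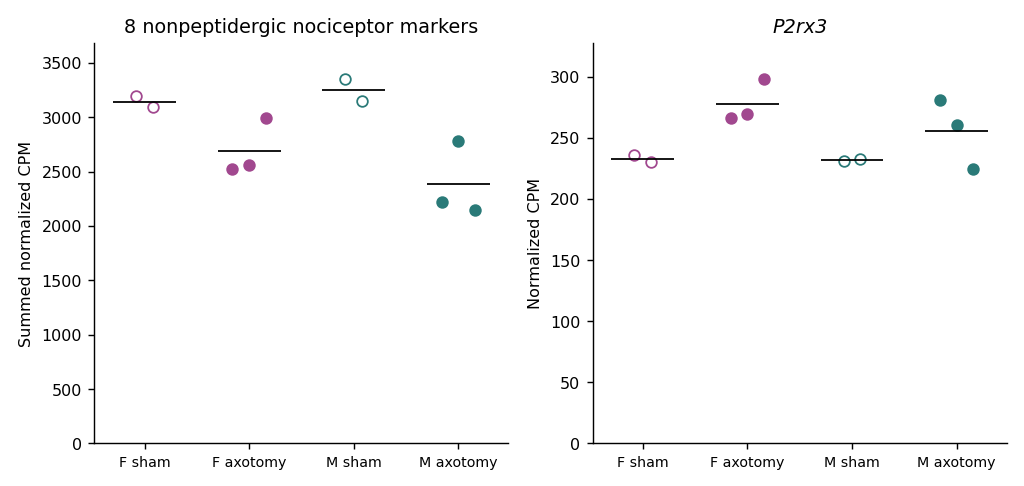
Left, summed normalized CPM of 8 marker genes of nonpeptidergic nociceptors; right, normalized CPM of P2rx3; 1 point per library, open for sham and filled for axotomy, with a line at each group mean and both axes from 0. The marker sum is lower in all 6 axotomy libraries than in the 4 sham libraries, while P2rx3 in axotomy runs from 225 to 298 CPM against 230 to 236 CPM in sham.

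P2rx2 encodes the subunit that joins P2rx3 subunits in slowly desensitizing heteromeric channels. It was at 3.09 and 2.80 CPM in female sham and 4.35, 3.68 and 4.30 CPM in female axotomy libraries. The male values were 3.32 and 3.14 CPM in sham and 3.40, 3.44 and 2.79 CPM after axotomy. The female groups did not overlap and the male groups did. P2rx2 was upregulated 1.39-fold in females, with a log2FC of 0.48 ± 0.15 and a padj of 0.0637. In males the log2FC was -0.01 ± 0.15 (padj = 0.978). It rests on 174 to 319 estimated counts per library, and P2rx3 TPM was 69.8 to 94.3 times P2rx2 TPM over the 10 libraries. The female call was lost without 6 of the 10 libraries as the padj went to 0.177 and 0.347 without female sham 1 and 2, to 0.173 and 0.123 without female axotomy 1 and 3, and to 0.103 and 0.102 without male sham 1 and 2. It was also lost with no filter on low counts (padj = 0.123) and with protein-coding transcripts only (0.109).

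P2rx6 encodes a subunit that traffics poorly by itself and is found mainly together with other P2X subunits. Its levels were 29.4 and 32.7 CPM in sham females, 30.8 and 33.2 CPM in sham males, 20.9, 24.6 and 25.9 CPM in axotomized females and 20.5, 25.8 and 19.8 CPM in axotomized males. All 6 axotomy libraries were below all 4 sham libraries. P2rx6 was downregulated 1.45-fold in males, with a log2FC of -0.53 ± 0.13 (padj = 0.0089), and also in females, with a log2FC of -0.38 ± 0.13 (padj = 0.0713). The male call held whichever 1 library was left out, with a padj of 0.000838 to 0.0765, and under each of 7 other settings. The female call was lost without female sham 1 or 2 (padj = 0.148 and 0.39), without axotomy 1 or 2 of that sex (0.212 and 0.131) and without male sham 1 or 2 (0.106 and 0.117). Sensory neuron markers fell beside it, in males 6 of 8 and in females 2 of 8, among them Rbfox3, a neuronal RNA-binding protein gene, with a log2FC of -0.50 ± 0.14 in females and -0.77 ± 0.14 in males, and their part in the result was not tested. Slc7a4, which lies beside P2rx6 in the RefSeq annotation, was also downregulated in both sexes, with a log2FC of -0.82 ± 0.24 in each.

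P2rx7 encodes the channel that needs high ATP concentrations, can open a large pore and drives release of interleukin-1 in macrophages, and is present in satellite glia. It was at 28.8 and 27.3 CPM in female sham and 27.7, 21.6 and 23.1 CPM in female axotomy libraries. In males it was at 23.4 and 24.1 CPM in sham and 35.7, 25.6 and 33.3 CPM after axotomy. The 3 male axotomy libraries were above the 2 male sham libraries, with library 2 close to them, and the female groups overlapped. P2rx7 was upregulated 1.32-fold in males, with a log2FC of 0.41 ± 0.14 (padj = 0.0477), and was not called in females, with a log2FC of -0.22 ± 0.14 (padj = 0.336). The male call was lost without male sham 1 (padj = 0.216), male sham 2 (0.18), male axotomy 1 (0.148) or male axotomy 3 (0.111). In males all 8 macrophage markers, all 6 myelinating Schwann cell markers and 3 of 6 satellite glia markers (Fabp7 0.70 ± 0.17, Cdh19 0.58 ± 0.13 and Glul 0.30 ± 0.10) were called higher beside it. The fibroblast, mast cell and hemoglobin lists given above also rose in males. In females 1 of 8 macrophage markers was called higher and 7 of 8 had a positive log2FC. No Schwann cell marker was called there, and 5 of 6 had a negative log2FC. Of the 6 satellite glia markers, 1 was called higher and 2 lower in females. Their part in the result was not tested.

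The P2rx7 result also depended on which transcripts were summed. Salmon assigned 79.9% to 91.6% of the P2rx7 counts to P2rx7-203, the full-length coding transcript of 4936 bases. A retained-intron transcript, P2rx7-205, took 11.1% in female axotomy 1, 12.1% in male axotomy 1 and 8.06% in male axotomy 3, and was estimated at 0 in the other 7 libraries. The 2 male libraries with this transcript were those with the highest P2rx7 levels. When only protein-coding transcripts were summed, which leaves out P2rx7-205 with P2rx7-206 and P2rx7-207 and the noncoding transcripts of all other genes, the male log2FC was 0.20 with a padj of 0.121, and the call was lost. The same 3 libraries had the highest summed hemoglobin CPM of the 10, at 1320, 1940 and 3124 against 404 to 980 in the others, and the part of other cells in this transcript was not tested.

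**Figure D4:**
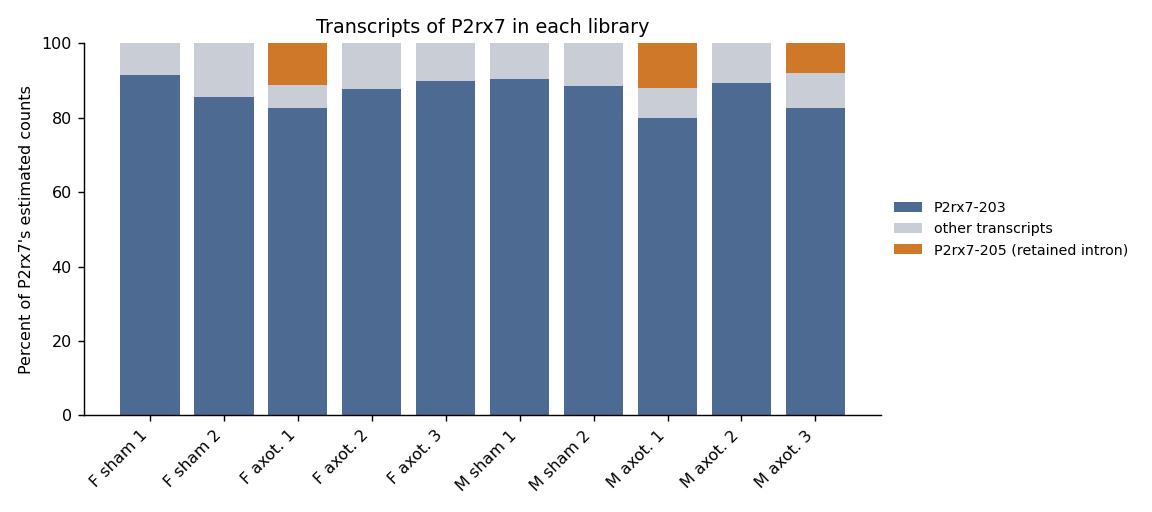
Percent of the estimated counts of P2rx7 in each of the 10 libraries that Salmon assigned to P2rx7-203 (blue), to the retained-intron transcript P2rx7-205 (orange) and to all other P2rx7 transcripts (grey), on an axis from 0 to 100. The orange part is present in female axotomy 1 and in male axotomy 1 and 3, at 8.06% to 12.1%.

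P2rx4 encodes the ATP channel of lysosomes and of microglia and macrophages, and its gene lies next to P2rx7. Its levels were 27.8 and 27.4 CPM in sham females, 29.1 and 30 CPM in sham males, 33.8, 30.5 and 30.6 CPM in axotomized females and 32.1, 30.4 and 33.5 CPM in axotomized males. Each axotomy library was above all sham libraries, with a narrow gap between the highest sham and the lowest axotomy library, both male. The log2FC was 0.20 ± 0.08 in females (padj = 0.118) and 0.11 ± 0.08 in males (padj = 0.286), and neither was called. In females DESeq2 (padj = 0.0821) and a fit of the 2 female groups alone (0.0943) called it. P2rx4 was spread over several transcripts, with 51.6% of its counts on P2rx4-202 and 29.5% on P2rx4-201 on average, and 8.31% to 10.8% on transcripts that are not protein-coding. In the RefSeq annotation the end of P2rx4 overlaps Camkk2, a kinase gene with a log2FC of 0.03 ± 0.08 in females and -0.03 ± 0.08 in males. The libraries were stranded, but Salmon's strand setting was not given in the sources used here. Reads of overlapping genes may not be fully separated.

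P2rx5 encodes a further channel subunit of sensory neurons. It stood at 13.9 and 14.5 CPM in sham females, 13.3 and 14.5 CPM in sham males, 17.1, 18.3 and 17.5 CPM in axotomized females and 15.7, 19.4 and 14.1 CPM in axotomized males. The female groups were apart, and male axotomy library 3 lay within the male sham range. The log2FC of 0.31 ± 0.12 in females (padj = 0.123) and 0.24 ± 0.12 in males (padj = 0.164) did not pass the threshold. In females it passed with DESeq2 (padj = 0.0966), protein-coding transcripts only (0.0993) and the 2 female groups alone (0.024).

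**Figure D5:**
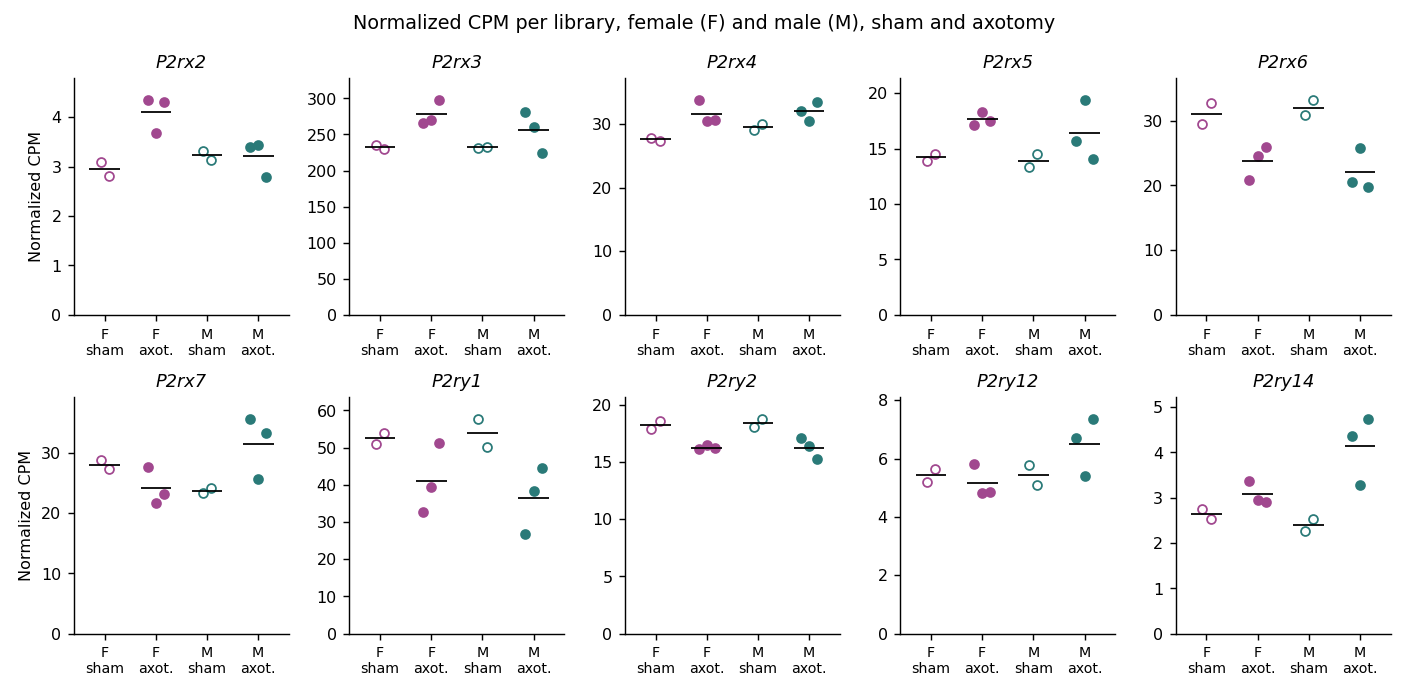
Normalized CPM of each receptor gene in every library, with 1 point per library, open for sham and filled for axotomy, females in purple and males in green, a line at each group mean and every axis from 0. P2rx6 and P2ry2 are lower and P2rx4 and P2ry14 higher in all 6 axotomy libraries than in all 4 sham libraries; male axotomy library 2, the middle of the 3 filled green points, is nearest to sham for P2rx7, P2rx6 and P2ry14.

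Among P2Y receptors, P2ry1 encodes the ADP receptor that couples to calcium release. It was at 51.0 and 53.9 CPM in female sham and 32.6, 39.3 and 51.2 CPM in female axotomy libraries. Male libraries had 57.8 and 50.1 CPM in sham and 26.8, 38.3 and 44.5 CPM after axotomy. The male groups did not overlap, while female axotomy 3 was within the female sham range. P2ry1 was downregulated 1.48-fold in males, with a log2FC of -0.56 ± 0.21 (padj = 0.0585), and had a log2FC of -0.35 ± 0.21 in females (padj = 0.291). Its spread between axotomy libraries was wide, with an SD of 9.42 CPM around 41.0 in females and 8.94 CPM around 36.5 in males (n = 3 each). The male call was lost without male sham 1 (padj = 0.262), male sham 2 (0.114), male axotomy 1 (0.141) or male axotomy 2 (0.109), and with no filter on low counts (0.237).

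P2ry2 encodes the receptor for ATP and UTP, which couples to calcium release. Its level was 17.9 and 18.6 CPM in sham females, 18.1 and 18.8 CPM in sham males, 16.1, 16.5 and 16.2 CPM in axotomized females and 17.1, 16.4 and 15.3 CPM in axotomized males. Every axotomy library was below every sham library. The log2FC of -0.17 ± 0.08 in females (padj = 0.187) and -0.18 ± 0.08 in males (padj = 0.102) fell short of the threshold. In males it was called with DESeq2 (padj = 0.0755), RLE size factors (0.0749) and protein-coding transcripts only (0.0372), and in females with protein-coding transcripts only (0.0935). Its genomic neighbour P2ry6, a UDP receptor gene expressed in macrophages, was upregulated in males with a log2FC of 1.41 ± 0.29 (padj = 0.00531). In females P2ry6 had a log2FC of 0.59 ± 0.29 (padj = 0.2), and its interaction was not called (padj = 0.474).

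P2ry12 encodes the ADP receptor of platelets and microglia that lowers cyclic AMP. It was at 5.20 and 5.64 CPM in sham females, 5.79 and 5.08 CPM in sham males, 5.82, 4.83 and 4.86 CPM in axotomized females and 6.70, 5.39 and 7.37 CPM in axotomized males. The groups overlapped in both sexes, and the log2FC was -0.07 ± 0.16 in females (padj = 0.813) and 0.25 ± 0.16 in males (padj = 0.236). Beside this uncalled difference, 3 of 4 platelet markers were called higher in males. Pf4 had a log2FC of 1.73 ± 0.29, Gp9 rested on 1 to 38 estimated counts per library, and Itga2b was not called (0.44 ± 0.23, padj = 0.168).

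P2ry14 encodes the receptor for UDP-glucose and other UDP-sugars, which also lowers cyclic AMP and is found on immune and glial cells. It was at 2.76 and 2.54 CPM in female sham and 3.36, 2.95 and 2.91 CPM in female axotomy libraries. In males it was at 2.27 and 2.53 CPM in sham and 4.36, 3.29 and 4.75 CPM after axotomy. Axotomy was above sham in every library, with the 3 male axotomy libraries spread from near the females to well above them. P2ry14 was upregulated 1.72-fold in males, with a log2FC of 0.78 ± 0.18 (padj = 0.00809), the largest change of the 10 genes, and had a log2FC of 0.21 ± 0.18 in females (padj = 0.466). The male call held whichever 1 library was left out (padj 0.00126 to 0.0826) and under the 7 other settings, on 147 to 317 estimated counts per library. In males the macrophage, mast cell, fibroblast and meningeal, myelinating Schwann cell and hemoglobin genes of the marker lists were all called higher beside it. In females 1 of 8 macrophage markers was called higher and 2 of 6 fibroblast and meningeal markers lower. There 3 of 4 mast cell markers and 5 of 6 Schwann cell markers had a negative log2FC, with none called. The part of these cells in the result was not tested.

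P2ry12, P2ry13 and P2ry14 lie close together, and P2ry12 and P2ry14 overlap Med12l, a Mediator subunit gene, in the RefSeq annotation. Med12l went the other way from P2ry14, with a log2FC of -0.41 ± 0.12 in females (padj = 0.0503) and -0.66 ± 0.12 in males (padj = 0.0032), at a mean of 48.9 CPM. P2ry13, an ADP receptor gene of immune cells, was upregulated in males with a log2FC of 1.08 ± 0.36 (padj = 0.0386), and had 0.20 ± 0.36 in females (padj = 0.755). The libraries were stranded; reads of Med12l inside P2ry12 or P2ry14 could be told apart from theirs only where the quantification used strand.

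Upstream sequences of 3 members that changed in males are shown because P2ry14 and P2rx7, the 2 that rose, each have a window that holds the heptamer TGACTCA or its reverse complement TGAGTCA, the binding motif of AP-1, the family of transcription factors that includes Atf3. Windows are the 250 bases before an annotated start (RefSeq, GRCm38.p6), available for 7 of the 10 members in 12 windows, and the motif was chosen after the windows had been seen. It was found on either strand in 2 of these 12 windows and in 4.46% of all 32851 windows of the same length. Capitals mark the motif. P2rx7-203 starts 16 bases before the end of the P2rx7 window in Gencode M21 (GRCm38), and its match is at the far end, from 249 bases before the start.
P2rx7, chr5:122643677-122643926, plus strand: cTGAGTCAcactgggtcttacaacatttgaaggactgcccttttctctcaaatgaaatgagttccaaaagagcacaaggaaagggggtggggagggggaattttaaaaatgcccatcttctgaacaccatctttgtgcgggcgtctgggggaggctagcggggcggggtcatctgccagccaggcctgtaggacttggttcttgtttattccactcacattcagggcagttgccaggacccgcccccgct
The matching P2ry14 window precedes the start of P2ry14-203, which held 0.34% of the P2ry14 counts on average, with the match from 202 bases before the start.
P2ry14 distal start, chr3:59153493-59153742, minus strand: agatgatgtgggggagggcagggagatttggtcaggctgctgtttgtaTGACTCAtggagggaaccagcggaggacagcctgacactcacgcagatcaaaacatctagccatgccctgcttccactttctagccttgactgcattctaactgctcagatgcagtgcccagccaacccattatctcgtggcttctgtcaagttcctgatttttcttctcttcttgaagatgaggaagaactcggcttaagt
P2ry14-202, with 59.6% of the counts, starts 140 bases downstream of a different window, which has no match.
P2ry14 proximal start, chr3:59130763-59131012, minus strand: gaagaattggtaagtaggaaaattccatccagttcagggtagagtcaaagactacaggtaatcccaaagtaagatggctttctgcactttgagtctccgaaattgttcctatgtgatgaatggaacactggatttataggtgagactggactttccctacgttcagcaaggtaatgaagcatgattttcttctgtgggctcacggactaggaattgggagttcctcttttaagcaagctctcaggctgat
The window of P2rx6, which fell in both sexes, ends at the start of P2rx6-201, the transcript with 91.1% to 95.5% of its counts, and has no match.
P2rx6, chr16:17561635-17561884, plus strand: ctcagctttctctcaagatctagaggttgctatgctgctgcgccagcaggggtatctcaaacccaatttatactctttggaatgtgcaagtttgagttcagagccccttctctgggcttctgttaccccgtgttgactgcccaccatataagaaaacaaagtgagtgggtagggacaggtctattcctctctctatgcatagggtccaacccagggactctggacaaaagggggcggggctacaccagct
A match says only that these letters are present in the window.

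Among the other members, P2rx5-201 held 99.0% to 100% of the P2rx5 counts, P2ry1-201 62.1% to 67.1% and P2ry2-201 64.9% to 77.6%. The share of counts on each member's most abundant transcript was compared between the 6 axotomy and 4 sham libraries with a two-sided exact permutation test, adjusted over the 10 members. No member is counted as changed. P2rx3-201 held 99.2% ± 0.108 (SD, n = 4) of the P2rx3 counts in sham and 98.8% ± 0.298 (SD, n = 6) after axotomy, a difference of -0.39 percentage points. Its exact permutation p was computed as 0.00952, the smallest that this design can give, and the adjusted p as 0.0952. That smallest value needs sham and axotomy libraries that do not overlap. Female axotomy 1 (99.1%) lay above male sham 2 (99%), so the computed p is too small and is not used as a call. No share passed within protein-coding transcripts only. With any 1 library left out the smallest p allowed cannot pass the adjustment for a single member, so those comparisons say nothing about stability. The largest difference in size was that of P2ry14-202, at 63.0% ± 7.63 (SD, n = 4) in sham and 57.3% ± 9.37 (SD, n = 6) after axotomy, with an exact permutation p of 0.333 before adjustment.

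The second question was whether the response differs between the sexes. The sex by injury interaction, the male minus the female log2FC, was called by edgeR for none of the 10 receptors, against 0.0720% of all genes. 3 receptors had an unadjusted p under 0.05 and DESeq2 called none. P2rx7 had the largest interaction, 0.62 ± 0.20 (padj = 0.289), followed by P2ry14 at 0.57 ± 0.25 (padj = 0.425) and P2rx2 at -0.49 ± 0.21 (padj = 0.425). For P2rx6, whose call was shared by the sexes, the interaction was -0.15 ± 0.18 (padj = 0.758), and for P2ry1 it was -0.21 ± 0.30 (padj = 0.803). Without male axotomy library 2, P2rx7 (0.75, padj = 0.0306) and P2ry14 (0.71, padj = 0.0848) were called. That library was the male axotomy library with the lowest P2rx7, P2ry12 and P2ry14 levels.

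Males were also compared with females directly. In sham no receptor was called by edgeR or DESeq2 and none had an unadjusted p under 0.05, against 0.0432% of all genes called. The largest difference in sham was in P2rx7, with a male minus female log2FC of -0.24 ± 0.15 (padj = 1). After axotomy no receptor was called by edgeR, against 1.63% of all genes, while 4 had an unadjusted p under 0.05 and DESeq2 called 1, P2rx7 (padj = 0.0896). In edgeR the male minus female log2FC after axotomy was 0.39 ± 0.13 for P2rx7 (padj = 0.195), 0.42 ± 0.16 for P2ry14 (padj = 0.239), 0.32 ± 0.14 for P2ry12 (padj = 0.301) and -0.36 ± 0.13 for P2rx2 (padj = 0.247). These comparisons share axotomy libraries with the interaction. Without male axotomy library 2, 4 receptors were called, namely P2rx7 (padj = 0.0176), P2ry14 (0.0364), P2ry12 (0.0563) and P2rx5 (0.0935).

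Several receptors moved the same way in both sexes without passing in either, so the mean of the female and male log2FC was also tested, a contrast added after the data had been seen. It called 7 of 10 receptors, against 46.6% of all genes. They were 4 higher genes, where 24.4% of all genes were called higher, and 3 lower, where 22.2% were called lower. This is a larger share than among all genes, but over 10 genes that were chosen with earlier results known. Beside P2ry14 (0.50 ± 0.13, padj = 0.010), the higher genes were P2rx3 (0.19 ± 0.07, padj = 0.0402), P2rx4 (0.16 ± 0.05, padj = 0.0433) and P2rx5 (0.27 ± 0.09, padj = 0.0291). The lower genes were P2rx6 (-0.46 ± 0.09, padj = 0.00241), P2ry1 (-0.46 ± 0.15, padj = 0.0304) and P2ry2 (-0.17 ± 0.06, padj = 0.0301). P2rx7, with male and female values of opposite sign, had 0.09 ± 0.10 (padj = 0.486), and P2ry12 had 0.09 ± 0.11 (padj = 0.539). Without 1 sham library the count was 4 (female sham 1, female sham 2 or male sham 2) or 3 (male sham 1). P2rx4 was lost with protein-coding transcripts only (0.09, padj = 0.212), and with no filter on low counts P2rx4 (0.105), P2ry1 (0.154) and P2ry2 (0.102) were lost. P2ry2 was also lost with no length offset (-0.11, padj = 0.106), where P2rx2 was called (0.0795).

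By the plain rule that axotomy and sham libraries do not overlap, 7 receptors differed in females, where 52.2% of all genes do, 6 in males, where 57.7% do, and 4 over both sexes (P2rx4, P2rx6, P2ry2 and P2ry14), where 28.5% do. Each of these counts is within 2 genes of what that share gives among 10 genes.

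Some receptors varied together across the 10 libraries. The Pearson correlation of log2 CPM was 0.85 for P2rx6 with P2ry2, 0.84 for P2rx7 with P2ry12, 0.82 for P2rx2 with P2rx3, 0.77 for P2rx6 with P2ry1 and for P2rx3 with P2rx5, and 0.76 for P2ry14 with P2rx7 and with P2rx4. P2rx4 and P2rx7 themselves had 0.36. It was -0.91 for P2rx6 with P2ry14 and -0.88 for P2rx6 with P2rx4. These are descriptions over 10 libraries of 4 groups, which share the injury and the composition of the ganglion. Among 13911 protein-coding genes with a mean of at least 1 CPM, those most like P2ry14 were the eosinophil chemokine gene Ccl11 (r = 0.992), the proteoglycan gene Srgn (0.992) and Gpx8 (0.990). Most like P2rx6 were Snx27 (0.993), Angel1 (0.993) and AU022252 (0.992), and most like P2ry1 were the kinase gene Pak3 (0.982), Ano3 (0.981) and Cpne3 (0.981). P2rx7 was followed by the neuropeptide gene Cartpt (0.951), the caveolin gene Cav2 (0.950) and Serpind1 (0.945), and P2rx2 by Mybbp1a (0.968), Fam89a (0.964) and Cpne2 (0.960).

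Other genes of purinergic signalling, or with P2 receptor symbols, were counted by lists. Of 5 further genes with P2 receptor symbols tested, 3 were upregulated in males, where 22.6% of all genes were called higher. They were P2ry6 and P2ry13 as above and P2ry10, with a log2FC of 1.48 ± 0.56 (padj = 0.0633) on 6 to 53 estimated counts per library. In females edgeR and DESeq2 called none of the 5 and none had an unadjusted p under 0.05. The sex by injury interaction was also called for none of the 5, and none had an unadjusted p under 0.05 for it. Of the 6 inflammasome genes, which act downstream of P2rx7 in macrophages, 4 were upregulated in males, against 22.6% of all genes. They were Il1b (2.76 ± 0.54, padj = 0.0043), Il18 (0.70 ± 0.21, padj = 0.0245), Casp1 (0.59 ± 0.18, padj = 0.0248) and Gsdmd (0.57 ± 0.22, padj = 0.0728). Nlrp3 (0.83 ± 0.44, padj = 0.17) and Pycard (1.86 ± 0.82, padj = 0.113) were not called in males. In females edgeR called none of the 6, with 1 at an unadjusted p under 0.05 and 1 called by DESeq2. The female log2FC was 1.36 ± 0.52 for Il1b (padj = 0.111), 0.15 ± 0.21 for Il18, 0.12 ± 0.17 for Casp1 and -0.05 ± 0.22 for Gsdmd. The sex by injury interaction was called for none of the 6 by edgeR or DESeq2, and none had an unadjusted p under 0.05 for it. These male calls stand beside the macrophage markers given above, and the part of those cells was not tested.

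Of the 8 ectonucleotidases tested, the enzymes that break down extracellular nucleotides, 1 rose and 2 fell in females and 2 rose and 2 fell in males. Among all genes tested, 20.2% were called in females and 42.0% in males. Nt5e, which makes adenosine from AMP, was upregulated in both sexes (0.41 ± 0.10 in females and 0.37 ± 0.10 in males). Acpp (also called Acp3), the AMP-hydrolysing phosphatase of nociceptors, was downregulated in both (-0.34 ± 0.12 and -0.44 ± 0.12), as was the neuronal ATPase gene Entpd3 (-0.47 ± 0.13 and -0.66 ± 0.13). Entpd2, an ATPase of glia, was upregulated in males (0.62 ± 0.13, padj = 0.00506) and had a log2FC of -0.06 ± 0.13 in females (padj = 0.809).

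Of the 9 genes of adenosine receptors and adenosine handling, 4 rose and 2 fell in females and 5 rose and 3 fell in males. The shares called among all genes were 20.2% and 42.0%. The purine phosphorylase gene Pnp (0.77 ± 0.10 in females, 1.07 ± 0.10 in males), the nucleoside transporter gene Slc29a2 (1.10 ± 0.16 in both) and the receptor gene Adora2b (0.45 ± 0.16 and 0.66 ± 0.16) were upregulated in both sexes. The inhibitory receptor gene Adora1 (-0.31 ± 0.10 and -0.50 ± 0.10) and the transporter gene Slc29a1 (-0.23 ± 0.08 and -0.21 ± 0.08) were downregulated in both. Ada, which breaks down adenosine, was called in females (0.60 ± 0.18) and not in males (0.38 ± 0.19, padj = 0.143). Adk (0.26 ± 0.09) and Adora2a (-0.58 ± 0.24) were called in males. In females Adk had a log2FC of 0.11 ± 0.09 (padj = 0.44) and Adora2a the same -0.58 ± 0.24 (padj = 0.144). The sex by injury interaction was called for none of the 9 genes. Adora3 was called higher in males on few counts, with 6 and 0 in the sham libraries and 18, 10 and 11 after axotomy. Among 6 genes of ATP release, the pannexin channel gene Panx1 was upregulated in both sexes (0.34 ± 0.08 and 0.25 ± 0.08) and the neuronal pannexin gene Panx2 downregulated in both (-0.54 ± 0.17 and -0.80 ± 0.17), while Lrrc8a, a subunit of the volume-regulated anion channel, was called lower in males (-0.24 ± 0.10).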

How the data were processed

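Poly-A RNA of DRG was sequenced as 10 stranded libraries. After trimming with Trimmomatic 0.39, the authors quantified Gencode M27 (GRCm39) transcripts by Salmon 1.3.0 with sequence and GC bias correction. Its strand setting was not given in the sources used here. Deposited values were estimated counts per transcript, not normalized, the TPM values that the authors' Salmon run computed from them, and effective lengths. Gene sums of the estimated counts, rounded to whole numbers, entered edgeR 4.0.16 (R 4.3.3) with TMM normalization, average effective length as an offset, filterByExpr (minimum count 10), 4 group means over 10 libraries, and Benjamini-Hochberg adjustment over 20836 genes. The SE of a log2FC comes from its F value. The fit was tested on simulated data. A floor of 3 counts is 0.0333 to 0.0543 CPM of the raw library total and covers counting error only. Transcript shares were compared by exact permutation with SciPy 1.17.1. The authors' batch correction was not repeated.

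Groups come from the sample labels. Members and gene lists were chosen with earlier results of these data known. All members are named; in lists, genes called in either sex are named; markers are given by counts and the examples beside a result; the 3 genes most like each called member are those with the highest Pearson correlation. Neighbouring genes, the marker ratio, the promoter motif and the mean of both sexes were added after the data had been seen. Alternatives were DESeq2 1.42.0, RLE size factors, no filter, no length offset, protein-coding transcripts only, only the 2 groups compared, a replicate block and leaving out each library.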

Additional observations from a re-analysis of the deposited data

Results flagged for a closer look

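No receptor had a sex by injury interaction past the threshold, but 3 marker genes of other cell types did (edgeR). The male minus female log2FC was 1.70 ± 0.23 for the satellite glia marker Fabp7 (padj = 0.0878). It was 1.35 ± 0.21 for Col1a1 and 0.92 ± 0.14 for Col1a2, collagen genes of the fibroblast and meningeal list (padj = 0.0916 each). They were called lower in females and higher in males.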

How the results depend on the processing

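The number of receptors called in females, 2, was 5 with DESeq2, 1 with no filter on low counts, 4 with protein-coding transcripts only, 5 with only the 2 groups compared and 4 with the replicate block; leaving out 1 library gave 0 to 5. In males, 4 were called, and 2 to 5 without 1 library. The interaction count was 0 and reached 2 without male axotomy 2 (0 to 2). Males against females after axotomy gave 0, 1 with DESeq2 and 0 to 4 without 1 library. The mean of both sexes gave 7, 4 with no filter on low counts and 3 to 8 without 1 library. The transcript share test computed 1 pass, P2rx3-201, which is not counted because its sham and axotomy libraries overlap. It gave 0 with any 1 library left out, where the smallest p allowed cannot pass for a single member. With protein-coding transcripts only it gave 0. The causes were not tested.

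Of the log2FC values, only some near 0 changed sign. The male log2FC of P2rx2 (-0.01) was 0.04 with protein-coding transcripts, 0.02 with the replicate block and -0.06 to 0.08 without 1 library (0.03 without male sham 1). The P2rx5 interaction (-0.08) was -0.22 to 0.02 without 1 library, and that of P2ry2 (-0.01) was 0.12 with no length offset and -0.05 to 0.03 without 1 library. The mean log2FC of P2rx7 was -0.02 with protein-coding transcripts. Among transcript shares (axotomy minus sham, percentage points), P2rx7-203 was 0.91 within protein-coding transcripts, and without 1 library P2rx5-201 ran from -0.03 to 0.29, P2ry12-204 from -7.76 to 3.52 and P2rx2-203 from -6.06 to 5.21.

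The labels give same-numbered libraries only a number, and their r of -0.12 to 0.27 over 13 pairs does not settle whether they were paired. The replicate block is therefore an alternative. With it 5 receptors were called in males and 0 in the interaction, and P2rx5 (padj = 0.0468 in females, 0.0669 in males) and female P2ry1 (0.0279) passed. With 2 sham libraries per sex, each sham library weighs on every call. RLE size factors moved the median of all genes by less than 0.1 on the log2 scale.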
